A study of Homo sapiens with 6 samples.

Results

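The proteasome genes described here are all 48 genes whose symbol is PSM followed by a letter from A to G and a number. They were picked by name from the 36601 genes of the count tables, by a rule that uses no values. Earlier results of these data were known when the rule was chosen. They comprised 8 core alpha genes (PSMA), 11 core beta genes (PSMB), 6 regulatory ATPase genes (PSMC), 11 regulatory non-ATPase genes (PSMD), 5 genes of activators and an inhibitor (PSME and PSMF), and 7 assembly genes. The assembly group held the 4 PSMG genes and the chaperones PSMD5, PSMD9 and PSMD10.

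The proteasome degrades proteins that carry ubiquitin chains. Its barrel-shaped core is built from rings of alpha and beta subunits, and the beta rings hold the active sites. A regulatory cap, in which ATPases sit in a ring and non-ATPase subunits bind and trim ubiquitin, unfolds the substrate and feeds it into the barrel. In cells exposed to interferon gamma, PSMB8, PSMB9 and PSMB10 take the places of the catalytic subunits PSMB5, PSMB6 and PSMB7, which changes the peptides offered to T cells.

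All libraries came from the human neuroblastoma line SK-N-BE(2)-C, an established cell line, by Seq-Well S3, in which single cells share small wells with barcoded beads. The 6 libraries fell into 3 groups of 2, labelled DMSO (the solvent control), TSA (a short name in wide use for trichostatin A, which blocks histone deacetylase enzymes) and E6R. The series title speaks of an inhibitor of the HDAC complex that is not enzymatic. The structure of E6R, the doses, the treatment times and whether the 2 libraries of a group came from separate cultures are details not given in the sources used here, so p-values measure the spread between these libraries, which may be technical.

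After filtering, 17589 cells were kept, from 1861 to 3946 per library. Their summed counts of unique molecular identifiers (UMIs, 1 per captured RNA molecule) lay between 4206366 and 26180262 per library, lowest in the 2 DMSO libraries. Mitochondrial genes held 5.83% and 6.20% of UMIs under DMSO, 6.08% and 9.71% under TSA, and 1.55% and 1.51% under E6R. Pairs of libraries shared 11 to 58 cell barcodes. The deposited files of TSA replicate 2 carry a mark in their names that those of the other 5 libraries lack. Its meaning is not given in the sources used here, and its part in the results was not tested. All 7 adrenergic neuroblastoma markers had UMIs, at a summed 594 to 2045 CPM (counts scaled to a common library total, here with no further scaling). The 4 fibroblast markers summed to 19.6 to 151 CPM under DMSO, 76.2 to 147 under TSA and 27.4 to 312 under E6R, and the 3 endothelial markers to 4.38 to 55.4, 3.90 to 10.6 and 1.91 to 65.8. In each of these lists the higher value of each treatment was that of replicate 1. The 5 immune markers stayed between 0.573 and 3.85 and the 3 epithelial markers between 0.280 and 1.66. The part of the mitochondrial share and of these markers in the results was not tested.

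The 48 genes together made up a smaller share of UMIs in both TSA libraries than in any other library. The share was 1.13% in each DMSO library, 0.932% and 0.723% in TSA replicates 1 and 2, and 1.09% and 1.15% in the E6R libraries. Both TSA values lay below the other 4, and TSA replicate 2 lay furthest down. The mean under TSA was 0.828% ± 0.148 (SD, n = 2) against 1.13% ± 0.00135 (SD, n = 2) under DMSO, a fall by 26.8%. By an exact permutation test (two-sided) p was 0.33 for TSA against DMSO, which is as low as 2 libraries in each group can reach. It was also 0.33 for E6R against TSA, and 1 for E6R against DMSO. The E6R libraries lay on either side of DMSO. With mitochondrial UMIs left out of the total, the shares were 1.20% and 1.21% under DMSO, 0.993% and 0.801% under TSA, and 1.1% and 1.17% under E6R, so both E6R libraries were then below both DMSO libraries. In counts of pooled cells, fewer proteasome transcripts per cell and more of other transcripts cannot be told apart.

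**Figure D1:**
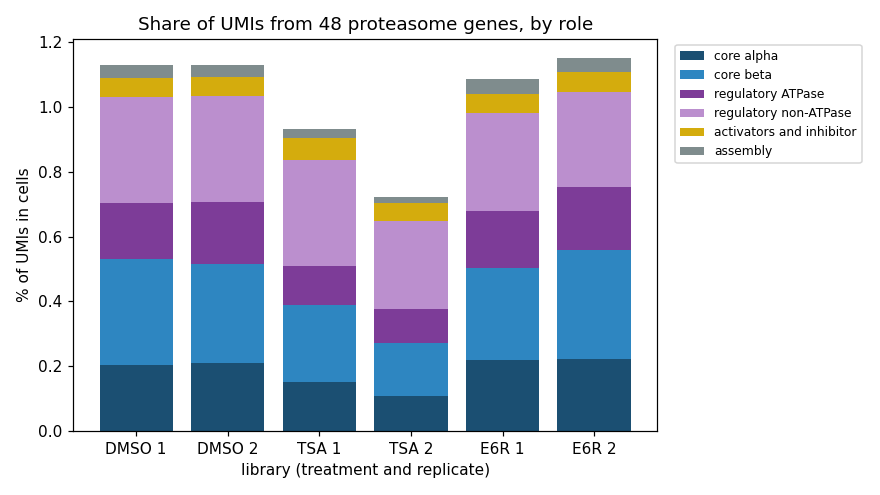
Percent of the UMIs in cells that came from the 48 proteasome genes, stacked by role (y axis), for each of the 6 libraries (x axis). The TSA columns reach 0.932% and 0.723%, below the DMSO and E6R columns, and the alpha, beta and ATPase segments are smaller in both TSA columns than in both DMSO columns.

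The roles differed in how they took part. Core alpha genes held 0.202% and 0.208% of UMIs under DMSO, 0.150% and 0.109% under TSA and 0.220% and 0.223% under E6R. Core beta genes held 0.327% and 0.306% under DMSO against 0.240% and 0.162% under TSA. Regulatory ATPase genes held 0.174% and 0.192% against 0.118% and 0.107%. For these 3 roles both TSA libraries were below both DMSO libraries. Non-ATPase genes held 0.329% and 0.330% under DMSO and 0.329% and 0.272% under TSA, and for TSA replicate 1 the level was within the DMSO range. Activator and inhibitor genes held 0.0583% and 0.0580% under DMSO and 0.0664% and 0.0547% under TSA, so these groups overlapped. Assembly genes held 0.0392% and 0.0379% under DMSO, 0.0285% and 0.0196% under TSA, and 0.0456% and 0.0452% under E6R, with no overlap between treatments. For every 100 core UMIs there were 94.9 and 101 regulatory UMIs under DMSO, 115 and 140 under TSA, and 94.7 and 86.9 under E6R. With PSMD2 left out the ratios were 79.4 and 86.9 under DMSO and 82.0 and 99.5 under TSA, and the groups overlapped.

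The lower share under TSA was seen in cells with few and with many UMIs alike. Among cells below the median depth of their library, proteasome genes held 1.1% of UMIs in each DMSO library and 0.954% and 0.695% in the TSA libraries. At or above the median depth the shares were 1.14% and 1.14% for DMSO and 0.930% and 0.729% for TSA. In barcodes that were not kept as cells they were 1.01% and 1.03% for DMSO and 0.769% and 0.568% for TSA. In cells thinned at random to 1000 UMIs, which compares cells at equal depth, the mean number of proteasome UMIs per cell was 11.1 and 11.3 under DMSO, 9.27 and 7.04 under TSA, and 11 and 10.8 under E6R. Only cells with 1000 UMIs or more could be thinned. These were 1187 of 1861 and 1682 of 3132 cells under DMSO, and 1852 of 2467 and 2789 of 3292 under TSA. Under E6R they were 2199 of 2891 and 2228 of 3946. The thinned cells of every library formed a single broad peak, with the 10th and 90th percentiles at 6 to 7 and 16 UMIs under DMSO and at 4 to 5 and 11 to 14 under TSA.

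**Figure D2:**
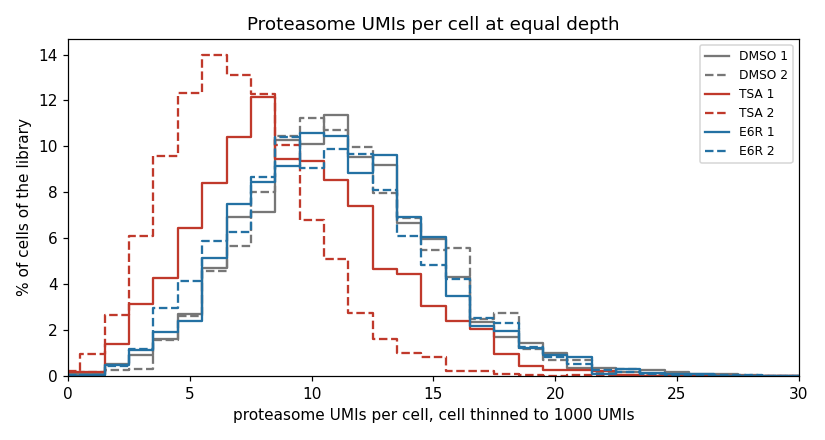
Percent of the cells with 1000 UMIs or more (y axis) by the number of proteasome UMIs in a cell thinned to 1000 UMIs (x axis). Solid lines are for replicate 1 and dashed lines for replicate 2. The curves of TSA lie to the left, with means of 9.27 and 7.04 UMIs, and those of DMSO and E6R, with means from 10.8 to 11.3, lie together.

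Gene by gene, 8 of the 46 proteasome genes that passed the filter on low counts fell under TSA and 4 rose. PSMA8, a subunit known from the testis, had no UMI in any library, and PSMB11, the subunit of the thymus, had 0 to 3 UMIs, so both were not tested. Genes were tested by the quasi-likelihood method of edgeR with trimmed-mean (TMM) scaling and Benjamini-Hochberg adjustment over all 16763 genes tested, and a gene was called at an adjusted p under 0.05. Over all genes, 13.5% were called lower and 16.2% higher, and 29.7% either way. Among the proteasome genes the shares were 17.4% lower and 8.70% higher, 26.1% in all, which is close to the share over all genes. Among genes of 20 CPM or more, 21.4% were called higher, 18.3% lower and 39.7% either way, so the proteasome genes lay below that share. At an unadjusted p under 0.05 stood 15 of the 46 genes, where 42.6% of all genes did, and 3908 of the 7515 genes of 20 CPM or more. The median log2 fold change of the 46 genes was -0.17, against -0.01 over all genes tested and 0.08 over the 7515 genes whose mean CPM reached 20. Both TSA libraries were below both DMSO libraries for 21 of the 46 genes (34.6% of all genes) and above for 7 (36.7% of all genes). Among the 7515 genes of 20 CPM or more, 2593 lay below and 3173 above.

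The number of calls depended on scaling and on which libraries were in the fit. Under scaling by total counts alone the median over all genes moved from -0.01 to -0.32. That of the proteasome genes moved from -0.17 to -0.47, and 0 proteasome genes were called higher and 15 lower. Of all 16763 genes, 1717 were then called higher and 3361 lower, against 2720 and 2255 with TMM scaling. PSMD2, PSMD6, PSME1 and PSME3 kept a positive fold change there. With a TSA or DMSO library left out, its group has a lone library that is assumed to vary like the other groups, and fewer of all genes were called. Without TSA replicate 2 none of the 12 genes was called, with an adjusted p of 0.0533 to 0.246, and 7.79% of all genes were. Without TSA replicate 1, without DMSO replicate 1 and without DMSO replicate 2 there were 4, 4 and 5 calls among the 46 genes, beside 9.84%, 14.0% and 15.0% of all genes. All 12 genes kept the direction of their fold change in these fits. Without TSA replicate 2, PSMD7 stood at -1.07 and PSMB6 at -1.03, while PSMB5 moved from -1.20 to -0.82 and PSMA7 from -0.79 to -0.52.

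**Figure D3:**
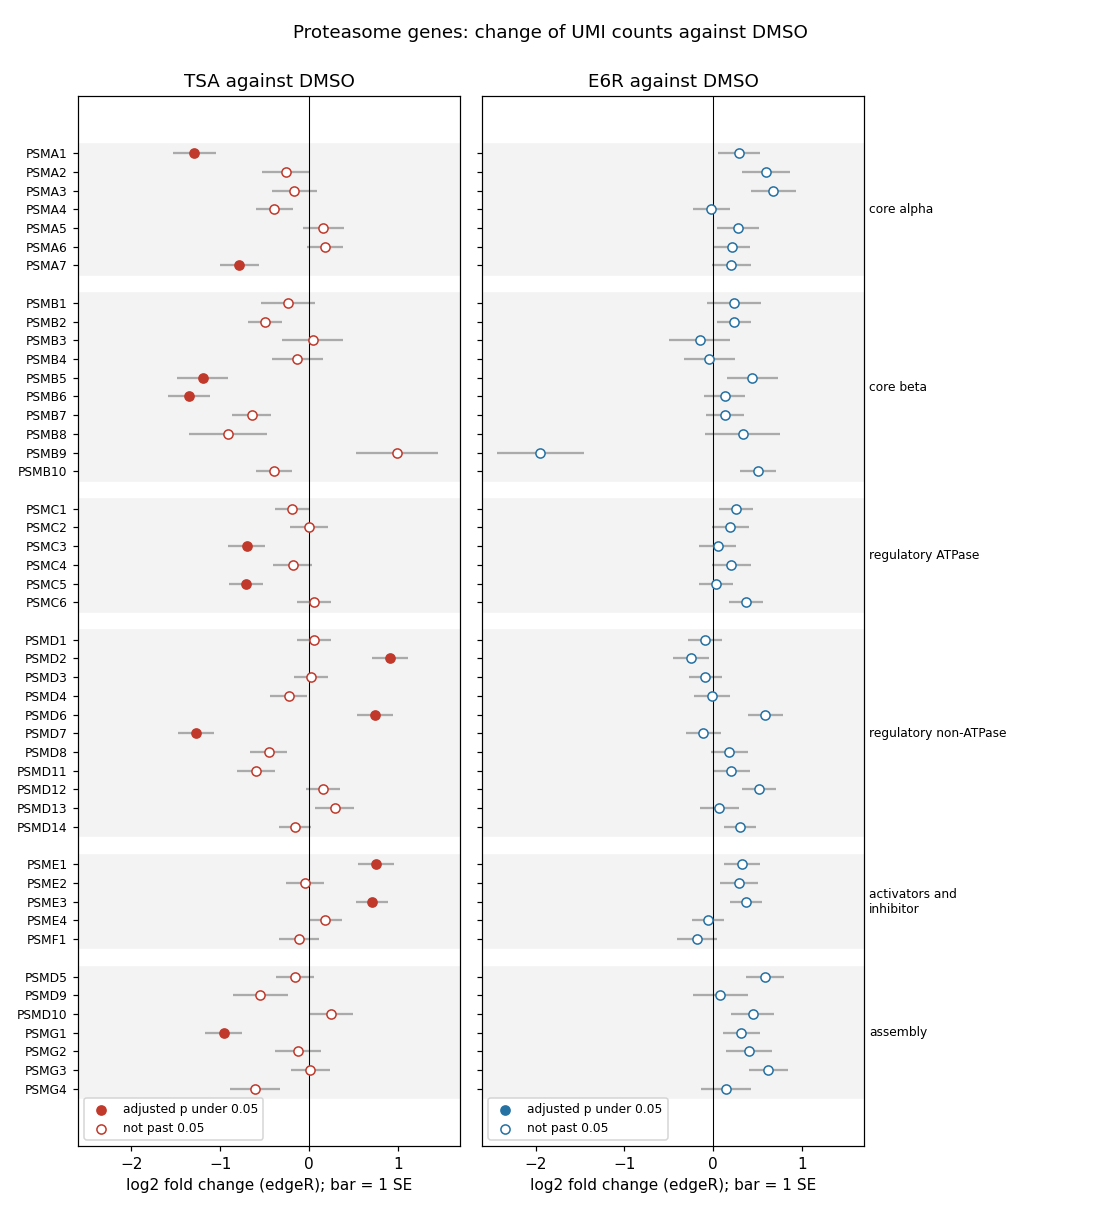
Log2 fold change of each of the 46 tested genes (x axis, with 1 standard error) by role (y axis), for TSA (left) and E6R (right) against DMSO; filled points have an adjusted p under 0.05. Under TSA 8 genes lie to the left and 4 to the right with filled points, and under E6R no point is filled.

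Among the alpha subunits, which form the outer rings and the gate of the core, PSMA1 and PSMA7 fell under TSA. PSMA1 had 66.1 and 66.7 CPM under DMSO, 32.7 and 21.3 under TSA, and 77.8 and 84.3 under E6R. Both TSA libraries were below the others, a log2 fold change of -1.29 against DMSO (SE 0.24, adjusted p = 0.00728). PSMA7 had 721 and 756 CPM under DMSO, 501 and 356 under TSA, and 872 and 827 under E6R, with -0.79 for TSA (SE 0.22, adjusted p = 0.0330). The other 5 tested alpha genes had fold changes for TSA between -0.39 (PSMA4) and 0.17 (PSMA6) and did not pass. The signs of PSMA5 and PSMA6 turned with total counts only. PSMA6 has 4 named pseudogenes, PSMA2 3 and PSMA3 1 in GENCODE 29, and the handling of reads shared with such copies is not given in the sources used here.

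Of the beta subunits with an active site, PSMB5 (chymotrypsin-like activity) and PSMB6 (caspase-like activity) fell under TSA. PSMB5 had 413 and 330 CPM under DMSO, 205 and 118 under TSA, and 547 and 458 under E6R. For TSA against DMSO its log2 fold change was -1.20 (SE 0.29, adjusted p = 0.0185), 2.30-fold lower. PSMB6 had 204 and 223 CPM under DMSO, 101 and 66.1 under TSA, and 230 and 236 under E6R. Its fold change was -1.35 (SE 0.24, adjusted p = 0.00601), 2.55-fold lower and the steepest fall of the 46 genes. PSMB7 (trypsin-like activity) had 350 and 427, 280 and 216, and 414 and 435 CPM in the same order, and missed the threshold at -0.65 (SE 0.22, adjusted p = 0.0555). It was called lower in 8 of the 17 alternatives, among them the replicate block (adjusted p = 0.0368) and DESeq2 (adjusted p = 0.0220). Its TSA libraries were nonetheless both below DMSO. The structural beta subunits PSMB1, PSMB2, PSMB3 and PSMB4 had fold changes from -0.50 to 0.04 and were not called. PSMB3 differed most within a treatment, with 421 and 924 CPM in the 2 E6R libraries.

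The inducible catalytic subunits did not move as a set. PSMB9, which replaces PSMB6, had 20 and 15 UMIs under DMSO, 113 and 63 under TSA, and 16 and 22 under E6R. In CPM this is 4.25 and 2.87, 8.58 and 5.49, and 1.01 and 0.828, so the 3 treatments did not overlap. Against DMSO the log2 fold changes of 0.99 for TSA (SE 0.46, adjusted p = 0.142) and -1.95 for E6R (SE 0.49, adjusted p = 0.205) did not pass. E6R against TSA passed, at -2.93 (SE 0.48, adjusted p = 0.00290). Of the UMIs of the pair PSMB9 and PSMB6, PSMB9 took 2.04% (exact 95% binomial interval 1.25 to 3.13) and 1.27% (0.714 to 2.09) under DMSO. It took 7.81% (6.48 to 9.31) and 7.66% (5.94 to 9.70) under TSA, and 0.438% (0.251 to 0.710) and 0.350% (0.219 to 0.529) under E6R. These intervals cover counting error only. The share depends on both genes. Under TSA, PSMB6 was 2.55-fold lower, while PSMB9 was 1.98-fold higher, was not called and had a negative fold change in 1 of the 17 alternatives. PSMB9 overlaps PSMB8 and TAP1 on the other strand and PSMB8-AS1 on its own, and without the strand rule of the counting, reads of these genes cannot be told apart.

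PSMB8, the partner of PSMB5, was sparse, with 21 to 149 UMIs per library. It had 4.89 and 4.21 CPM under DMSO, 2.96 and 1.83 under TSA and 5.81 and 5.61 under E6R. Its share of the pair was 1.17% and 1.26% under DMSO, 1.42% and 1.52% under TSA, and 1.05% and 1.21% under E6R. Both TSA shares were above all others, with overlapping intervals throughout. PSMB10, the partner of PSMB7, had 42.7 and 41.3, 31.3 and 32.6, and 54.1 and 65.3 CPM. Its fold change was -0.40 for TSA (SE 0.20, adjusted p = 0.175) and 0.51 for E6R (SE 0.20, adjusted p = 0.259). PSMB10 took 10.9% and 8.81% of its pair under DMSO, 10% and 13.1% under TSA and 11.6% and 13.0% under E6R, so TSA and DMSO overlapped.

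**Figure D4:**
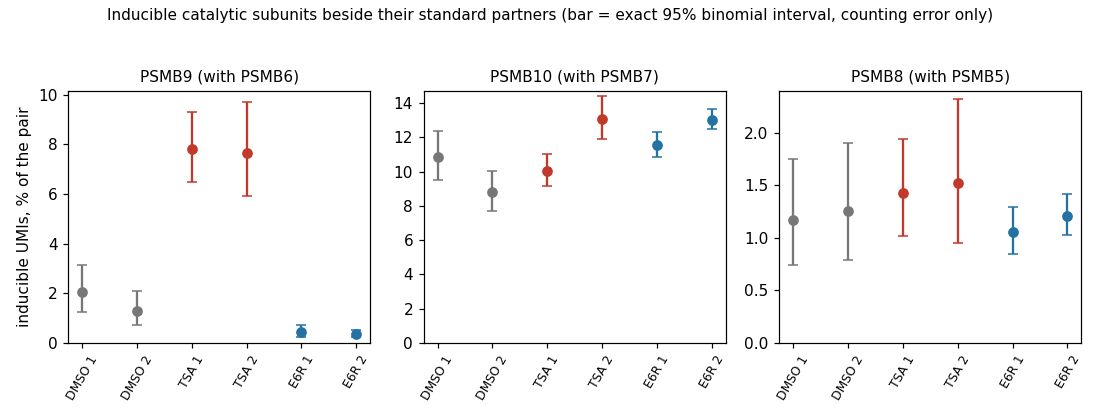
UMIs of each inducible catalytic subunit as a percent of the pair it forms with its standard partner (y axis) in each library (x axis), with exact 95% binomial intervals. PSMB9 stands at 7.81% and 7.66% under TSA, above 2.04% and 1.27% under DMSO and 0.438% and 0.350% under E6R. For PSMB8 both TSA points lie above all others, with intervals that overlap throughout. For PSMB10 the TSA and DMSO points overlap.

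In the ATPase ring PSMC3 and PSMC5 fell under TSA. PSMC3 had 421 and 405 CPM under DMSO, 256 and 252 under TSA, and 366 and 487 under E6R (-0.70 for TSA, SE 0.21, adjusted p = 0.0376). PSMC5 had 416 and 480, 286 and 263, and 444 and 472 CPM (-0.71, SE 0.19, adjusted p = 0.0275). In both genes the TSA libraries were the lowest of the 6. PSMC1, PSMC2, PSMC4 and PSMC6, which sit in the same ring, had fold changes between -0.19 and 0.05 and adjusted p from 0.485 to 0.995. PSMC1 has 13 named pseudogenes.

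The non-ATPase subunits went in both directions. PSMD2, a scaffold of the cap that docks shuttle proteins, rose. It had 736 and 682 CPM under DMSO, 1388 and 1274 under TSA, and 647 and 544 under E6R, a log2 fold change of 0.91 for TSA (SE 0.20, adjusted p = 0.0134). PSMD2 alone made up 7.29% and 6.58% of all proteasome UMIs under DMSO, 13.7% and 15.2% under TSA, and 5.97% and 4.79% under E6R. PSMD6, a subunit of the lid, had 69.7 and 75.4 CPM under DMSO, 117 and 125 under TSA, and 123 and 95.1 under E6R (0.74 for TSA, SE 0.20, adjusted p = 0.0282). PSMD6 overlaps 3 antisense genes, PSMD6-AS1, PSMD6-AS2 and AC012557.2.

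PSMD7 fell. It is the inactive partner of the deubiquitinase PSMD14 in the lid. PSMD7 had 326 and 316 CPM under DMSO, 149 and 117 under TSA, and 305 and 288 under E6R, with -1.27 for TSA (SE 0.20, adjusted p = 0.00399), the smallest adjusted p of the 46 genes. PSMD14 itself had 82.9 and 96.2, 79.8 and 80.9, and 110 and 110 CPM, and -0.16 for TSA (SE 0.18, adjusted p = 0.537). PSMD4, a ubiquitin receptor, had 373 and 361, 354 and 270, and 367 and 358 CPM, with -0.23 (SE 0.20, adjusted p = 0.413). The other 6 non-ATPase genes had fold changes from -0.59 (PSMD11) to 0.29 (PSMD13) and adjusted p from 0.0689 to 0.947.

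**Figure D5:**
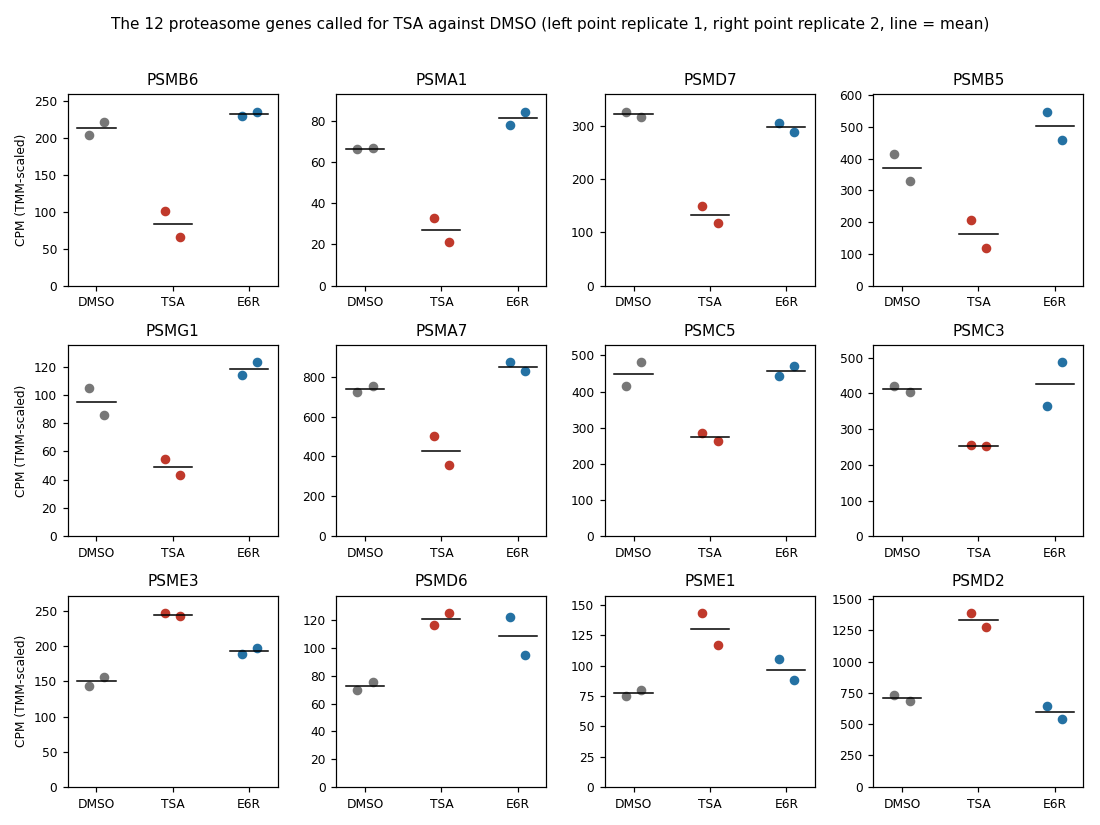
CPM (y axis, from 0) in each library for the 12 genes called for TSA against DMSO, ordered by fold change; the left and right points of a treatment are replicates 1 and 2 and the line is their mean. In the 8 genes of the first panels both TSA points lie below all DMSO and E6R points, and in PSME3, PSME1 and PSMD2 both lie above them.

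Among the activators, which open the core without ATP, PSME1 and PSME3 rose. PSME1, a subunit of the interferon-inducible PA28 ring, had 74.8 and 79.8 CPM under DMSO, 144 and 117 under TSA, and 105 and 88.1 under E6R (0.75 for TSA, SE 0.20, adjusted p = 0.0264). Its ring partner PSME2 had 136 and 128, 144 and 112, and 145 and 178 CPM, with -0.05 for TSA (SE 0.21, adjusted p = 0.884). PSME3, which forms the nuclear activator, had 143 and 157 CPM under DMSO, 247 and 242 under TSA, and 190 and 197 under E6R (0.71, SE 0.18, adjusted p = 0.0221). PSME4, the PA200 activator that is known for the breakdown of acetylated histones, had 87.3 and 98.9, 105 and 106, and 95.2 and 83.5 CPM. Its fold change was 0.18 for TSA (SE 0.18, adjusted p = 0.477) and turned negative with total counts only. PSMF1, an inhibitor of the core, had 79.9 and 68.7, 80.4 and 57.1, and 61.4 and 69.3 CPM and was not called (adjusted p = 0.733).

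Of the assembly chaperones PSMG1 fell. With PSMG2 it forms a dimer on which the alpha ring is built. PSMG1 had 105 and 85.7 CPM under DMSO, 54.5 and 43.3 under TSA, and 114 and 123 under E6R (-0.96 for TSA, SE 0.21, adjusted p = 0.0125). PSMG2 had 16.4 and 18.6, 16.8 and 15.2, and 25.8 and 20.4 CPM, and -0.13 for TSA (SE 0.26, adjusted p = 0.728). PSMG3, which forms the second chaperone dimer with PSMG4, had 75 and 72.5, 87.5 and 61.2, and 116 and 111 CPM, and 0.01 (SE 0.22, adjusted p = 0.972). PSMG4 had 28.9 and 47.4, 24.3 and 25.7, and 36.7 and 47.6 CPM, and -0.61 (SE 0.28, adjusted p = 0.138). PSMD5, PSMD9 and PSMD10, chaperones of the ATPase ring, had fold changes of -0.16, -0.55 and 0.25 and were not called.

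E6R against DMSO gave no call among the 46 genes, as over all 16763 genes (0%). Their adjusted p in the edgeR test ran from 0.205 to 0.976. DESeq2 called 0 of them too, while over all genes it called 327 higher and 97 lower. Without the filter on low counts edgeR called 1 of them, PSMA3, beside 720 higher and 375 lower of all 31532 genes then tested. Unadjusted p was under 0.05 for 7 of the 46, PSMA3, PSMB9, PSMB10, PSMD5, PSMD6, PSMD12 and PSMG3, where 17.4% of all genes reached that level. The median log2 fold change was 0.21, against 0.03 over all genes and 0.18 over genes of 20 CPM or more. Fitted values were above 0 for 35 of the 46 genes, against 5036 of the 7515 genes of 20 CPM or more. Both E6R libraries were above both DMSO libraries for 23 genes (24.6% of all genes) and below for 5 (22.7% of all genes). Among the 7515 genes of 20 CPM or more, 2711 lay above and 911 below. PSMA3 had 148 and 120 CPM under DMSO and 234 and 194 under E6R, at 0.67 (SE 0.25, adjusted p = 0.243). PSMG3 stood at 0.62 (SE 0.22, adjusted p = 0.228). The assembly group had the highest median of the 6 roles, 0.40, and all 7 of its genes had fitted values above 0. So did all 6 ATPase genes and 6 of the 7 tested alpha genes. With total counts only, 29 of the 46 genes were above 0 and the median was 0.08, and the signs of PSMB6, PSMB7, PSMC3, PSMC5, PSMD9 and PSMD13 turned.

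Most of the called proteasome genes were higher under E6R than under TSA when these treatments were set against each other. Of the 46 genes, 17 (37.0%) were called higher under E6R and 2 (4.35%) lower, where 18.7% and 19.5% of all genes were, and 26.5% and 19.9% of genes of 20 CPM or more. In all 41.3% were called, against 38.2% of all genes and 46.4% of genes of 20 CPM or more. Both E6R libraries were above both TSA libraries for 30 genes (33.7% of all genes) and below for 6 (38.9% of all genes). The median was 0.45, against -0.09 over all genes and 0.10 over genes of 20 CPM or more. With total counts only the median of the 46 genes was 0.63. The largest rises were in PSMB5 (1.64, SE 0.29, adjusted p = 0.00420), PSMA1 (1.58, SE 0.24, adjusted p = 0.00225) and PSMB6 (1.48, SE 0.24, adjusted p = 0.00283). PSMD2 (-1.16, SE 0.20, adjusted p = 0.00372) and PSMB9 were lower. Of the 4 genes that rose under TSA against DMSO, PSMD2 was called for E6R against TSA, while PSMD6 (-0.15, adjusted p = 0.563), PSME1 (-0.43, adjusted p = 0.122) and PSME3 (-0.34, adjusted p = 0.167) were not.

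By role, 4 of 7 tested alpha genes, 6 of 10 beta genes, 2 of 6 ATPase genes, 3 of 11 non-ATPase genes, 0 of 5 activators and inhibitors and 2 of 7 assembly genes were called higher under E6R than under TSA. Genes called here and not for TSA against DMSO included PSMA2 (0.85, adjusted p = 0.0384), PSMA3 (0.84, adjusted p = 0.0324), PSMB2 (0.73, adjusted p = 0.0188), PSMB7 (0.77, adjusted p = 0.0244) and PSMB10 (0.90, adjusted p = 0.0100). PSMD11 (0.80, adjusted p = 0.0200), PSMD5 (0.74, adjusted p = 0.0254), PSMD8 (0.63, adjusted p = 0.0428) and PSMB8 (1.25, adjusted p = 0.0480) were also among them. The call of PSMB8 was made in 8 of the 17 alternatives and that of PSMD8 in 11. Both were lost without TSA replicate 1, without TSA replicate 2 and without E6R replicate 2, and that of PSMB8 also without E6R replicate 1. Without TSA replicate 2 there were 7 calls among the 46 genes, beside 14.4% of all genes, and without TSA replicate 1 there were 11, beside 17.7%.

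The start regions of genes that fell and rose under TSA were compared by the letters they hold, since proteasome genes are known to be switched on together through the factor NFE2L1. Windows of 300 bases, from 250 before to 50 after the start, were found in the RefSeq table (GRCh38.p14) for 42 of the 48 genes. PSMB5, PSMC5 and PSMD7 are shown for genes that fell, PSMD2 and PSMD6 for genes that rose, and PSMB9 for the gene whose level differed most between E6R and TSA. Capitals mark matches to TGACNNNGC (the core of the antioxidant response element), CCAAT (the NF-Y box) and CCGGAAG (an ETS core), searched on both strands.
PSMB5, chr14:23035171-23035470, minus strand: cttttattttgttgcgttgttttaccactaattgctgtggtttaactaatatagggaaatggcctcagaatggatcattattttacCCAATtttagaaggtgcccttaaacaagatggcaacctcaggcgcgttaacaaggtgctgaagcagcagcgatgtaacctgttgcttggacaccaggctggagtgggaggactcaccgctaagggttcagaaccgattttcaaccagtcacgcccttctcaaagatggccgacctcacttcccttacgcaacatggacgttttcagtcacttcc
PSMC5, chr17:63827181-63827480, plus strand: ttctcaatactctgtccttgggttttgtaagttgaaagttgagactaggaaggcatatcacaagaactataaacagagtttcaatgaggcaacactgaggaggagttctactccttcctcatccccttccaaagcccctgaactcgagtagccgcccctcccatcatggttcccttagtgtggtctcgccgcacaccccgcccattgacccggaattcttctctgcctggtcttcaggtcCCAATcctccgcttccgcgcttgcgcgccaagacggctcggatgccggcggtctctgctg
PSMD7, chr16:74296564-74296863, plus strand: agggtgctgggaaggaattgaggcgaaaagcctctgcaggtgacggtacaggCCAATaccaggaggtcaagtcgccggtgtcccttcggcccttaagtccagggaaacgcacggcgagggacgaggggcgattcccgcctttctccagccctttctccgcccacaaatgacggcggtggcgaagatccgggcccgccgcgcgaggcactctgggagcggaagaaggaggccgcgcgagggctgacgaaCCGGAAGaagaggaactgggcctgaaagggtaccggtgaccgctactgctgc
PSMD2, chr3:184298991-184299290, plus strand: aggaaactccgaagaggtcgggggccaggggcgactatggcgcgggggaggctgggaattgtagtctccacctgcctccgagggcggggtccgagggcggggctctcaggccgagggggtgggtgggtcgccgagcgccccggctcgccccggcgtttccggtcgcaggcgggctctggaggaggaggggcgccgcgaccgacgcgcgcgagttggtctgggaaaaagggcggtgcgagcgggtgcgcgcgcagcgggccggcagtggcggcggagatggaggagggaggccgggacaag
PSMD6, chr3:64023445-64023744, minus strand: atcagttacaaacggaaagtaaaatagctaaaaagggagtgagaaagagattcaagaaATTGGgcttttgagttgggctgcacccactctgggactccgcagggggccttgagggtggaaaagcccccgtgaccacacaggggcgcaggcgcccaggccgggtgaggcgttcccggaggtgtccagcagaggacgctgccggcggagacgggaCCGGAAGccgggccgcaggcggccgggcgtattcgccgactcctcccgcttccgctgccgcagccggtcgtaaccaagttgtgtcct
PSMB9, chr6:32853942-32854241, plus strand: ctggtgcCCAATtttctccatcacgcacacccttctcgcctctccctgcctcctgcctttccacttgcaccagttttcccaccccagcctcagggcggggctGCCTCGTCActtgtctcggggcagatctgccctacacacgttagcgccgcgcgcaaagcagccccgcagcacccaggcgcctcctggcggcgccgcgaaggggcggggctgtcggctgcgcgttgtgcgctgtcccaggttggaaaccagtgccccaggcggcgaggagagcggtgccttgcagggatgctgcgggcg

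TGACNNNGC was in 13 of the 42 windows (31.0%), against 13.3% of the 35116 windows of all genes. CCAAT was in 19 (45.2%), against 34.6%, and CCGGAAG in 13 (31.0%), against 10.3%. The 35116 windows were not limited to genes tested here or matched to the 42 in base content. Whether the higher shares are particular to proteasome genes was not tested. Matches of different motifs overlapped in 0 of the 42 windows, and 9 held none of the 3. The 13 genes with TGACNNNGC had a median log2 fold change of 0.02 for TSA, and the others -0.19. PSMG1 fell and PSME1 rose among the 13. CCAAT was in 5 genes called lower under TSA, PSMB5, PSMC3, PSMC5, PSMD7 and PSMG1, and in 2 called higher, PSMD6 and PSME3. Genes with CCAAT had a median log2 fold change of -0.16 for TSA, and the others -0.13. For CCGGAAG the medians were -0.08 with a match and -0.15 without. The window of PSMA1, also called lower, held no match, and PSMA7 and PSMB6, called lower too, had no window. The PSMD2 window held no match, and that of PSMB9 held TGACNNNGC on the minus strand and CCAAT. A match is a run of letters and not a measured binding site.

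Beside the 48 genes, 5 lists of functionally related genes (51 genes in all) were read from the same edgeR fit. These lists too were chosen with earlier results of these data known. Of their 24 calls for TSA against DMSO, 12 were kept without TSA replicate 1, 9 without TSA replicate 2, 13 without DMSO replicate 1, 15 without DMSO replicate 2 and 20 with total counts only. Among those kept without TSA replicate 2 were ECPAS, MAFK, NFE2L3, PITHD1, SYVN1, UBB, UBE3C and UFD1.

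Of 6 genes for ubiquitin and its activating enzymes, 5 were called higher under TSA and 0 lower, where 16.2% of all genes were called higher and 13.5% lower. Their median log2 fold change was 1.07, against -0.01 over all genes. UBB, a polyubiquitin gene, had 1257 and 1250 CPM under DMSO, 2901 and 2693 under TSA, and 1486 and 1607 under E6R (1.16 for TSA, SE 0.20, adjusted p = 0.00523). RPS27A, which encodes ubiquitin fused to a ribosomal protein, and the activating enzyme UBA1 also rose, with fold changes of 1.0 (adjusted p = 0.0205) and 0.77 (adjusted p = 0.0278). UBA6 did not pass (0.30, adjusted p = 0.381). UBB was still called with total counts only and without TSA replicate 2 (adjusted p = 0.0373), and RPS27A and UBA1 were called in neither.

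Of 13 other proteasome parts and partners, 2 rose and 3 fell under TSA, beside 16.2% and 13.5% of all genes. ECPAS, a scaffold that binds the proteasome, had 88.2 and 88.0 CPM under DMSO, 16.3 and 19.9 under TSA, and 123 and 101 under E6R. Its fold change was -2.28 for TSA (SE 0.21, adjusted p = 0.000917) and it was called lower in all 17 alternatives. UBE3C, a ubiquitin ligase at the proteasome, rose by 1.32 (SE 0.22, adjusted p = 0.00494), and PITHD1 by 1.22 (SE 0.22, adjusted p = 0.00656). SEM1, the smallest subunit of the lid, and ZFAND5, which stimulates the proteasome, fell by 1.0 (adjusted p = 0.0291) and 1.03 (adjusted p = 0.0108). POMP, the chaperone of beta ring assembly, and the ubiquitin receptor ADRM1 were not called, at 0.03 and 0.47.

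In the list of NFE2L1 control genes 4 of 11 rose and 2 fell under TSA, beside 16.2% and 13.5% of all genes. NFE2L1 itself had 473 and 662 CPM under DMSO, 424 and 460 under TSA, and 501 and 541 under E6R (-0.36 for TSA, SE 0.22, adjusted p = 0.249). NFE2L2, its relative, fell by 1.34 (SE 0.22, adjusted p = 0.00475). MAFG fell by 1.07 and MAFK rose by 3.22, and both encode small partners of these factors. MAFK had few UMIs, 7 and 10 under DMSO and 229 and 166 under TSA. SYVN1, the ligase that marks NFE2L1 for removal, had 10.4 and 8.61 CPM under DMSO, 35.9 and 41.8 under TSA, and 7.14 and 8.13 under E6R. It rose by 2.03 (SE 0.26, adjusted p = 0.00212), and FBXW7 by 0.79 (adjusted p = 0.0261). NFE2L3 was also called higher, from 1 and 0 UMIs under DMSO to 53 and 32 under TSA, with 2 and 4 under E6R.

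Of 12 genes of VCP and shuttle factors, 2 rose, 3 fell and 7 were not called under TSA, beside 16.2% higher and 13.5% lower of all genes. VCP, the ATPase that pulls ubiquitylated proteins out of complexes, was not called (0.27, adjusted p = 0.310). Its adaptors UFD1 (1.25, SE 0.20, adjusted p = 0.00441) and NPLOC4 (0.88, SE 0.22, adjusted p = 0.0204) rose. The shuttles RAD23B (-0.78, adjusted p = 0.0142) and UBQLN2 (-1.97, adjusted p = 0.00517) fell, while UBQLN1 (-0.05) and UBQLN4 (-0.24) were not called. For RAD23B, E6R was above DMSO in both libraries, with 225 and 226 CPM against 146 and 151, and did not pass (0.60, adjusted p = 0.211).

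Of 9 genes of immunoproteasome control and peptide handling, 1 rose and 2 fell under TSA, beside 16.2% and 13.5% of all genes. TAP2 (-1.13, adjusted p = 0.0376) and TAPBP (-1.15, adjusted p = 0.00748), which move and load peptides, fell. TAP1, the neighbour of PSMB9, had 0.715 to 3.95 CPM over the 6 libraries and was not called for TSA (adjusted p = 0.625). IRF1 and NLRC5, which control the inducible subunits, were not called (adjusted p = 0.646 and 0.239). For E6R against DMSO 0 of the 51 genes of these 5 lists were called by edgeR, with 6 at an unadjusted p under 0.05. DESeq2 called 2 of them, UCHL5 and RAD23B.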

How the data were processed

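Counts of UMIs per gene and barcode for 6 libraries were used as deposited by the authors. Reads were aligned and counted with STARsolo 2.7.9a on GRCh38, per the submitters' processing notes. The gene annotation, the rule for barcodes and the strand setting are not given in the sources used here. Groups and replicate numbers came from the labels.

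A barcode counted as a cell if it had 500 genes or more and if the 13 mitochondrial genes took no more than 20% of its UMIs. No doublet caller was run, and an alternative left out the 5% of cells with most UMIs. Counts were summed per library, filtered with filterByExpr and scaled by TMM. They were tested with edgeR 4.0.16 (R 4.3.3) by the quasi-likelihood test in 1 fit over 6 libraries, with group alone in the model and p-values adjusted by Benjamini-Hochberg (threshold 0.05). CPM are TMM-scaled, and standard errors are the absolute log2 fold change divided by the square root of F. The fit was tested on simulated data first. Shares were compared by the exact permutation test.

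Library values were given for the catalytic pairs, the PSME, PSMF and PSMG genes, PSMD4, PSMD14 and, per role and comparison, the 2 called genes with the largest fold change. Values for PSMB3, PSMA3 and other genes outside that rule were added after their values were seen. The members and lists were chosen with earlier results of these data known. Alternatives covered scaling, DESeq2 1.42.0, the filters, thinning, composition, the replicate block, the libraries in the fit and leaving out each library. Some genes of the related lists are not reported here.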

Additional observations from a re-analysis of the deposited data

How the results depend on the processing

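Over the 17 alternatives none of the 31 called values of proteasome genes changed sign; 433 of their values under an alternative kept the call and 94 lost it. Among values that were not called, signs did turn. With total counts only they turned in 11 of the 46 genes for TSA against DMSO, 6 for E6R against DMSO and 4 for E6R against TSA. Genes above 0 for TSA against DMSO went from 16 to 5 there. PSMB3 for E6R against TSA (-0.19) turned positive without the filter on low counts and without E6R replicate 1. For TSA against DMSO the 4 genes called higher became 0 with total counts only, 2 without the filter on low counts and 1 with cells thinned to 1000 UMIs, and ranged from 0 to 4 with 1 library left out. The 8 called lower became 15 with total counts only and 5 with all deposited barcodes, and ranged from 0 to 8 with 1 library left out. Over all genes, 1717 were called higher and 3361 lower of 16763 with total counts only for TSA against DMSO. Without the filter on low counts they were 2796 and 3112 of 31532, and with all deposited barcodes 3164 and 2287 of 19051. With thinned cells 1667 and 1698 of 11879 genes were called for TSA against DMSO, and 2106 and 2093 for E6R against TSA. For E6R against DMSO, 1 of the 46 genes was called higher without the filter on low counts, beside 720 of all 31532 genes. For E6R against TSA the 17 called higher became 10 and the 2 called lower became 1 with thinned cells, with ranges of 5 to 18 and 2 to 3 when 1 library was left out. PSMA1, PSMB5, PSMB6, PSMD2, PSMD7 and PSMG1 kept that call in all 17. The difference in share between E6R and DMSO, -0.01 percentage points, was 0.0165 with all deposited barcodes and ranged from -0.0436 to 0.0227 with 1 library left out, the highest without E6R replicate 1. The cause of these changes was not tested. With the replicate block edgeR called 4 higher and 9 lower for TSA against DMSO, 0 for E6R against DMSO, and 20 higher and 2 lower for E6R against TSA. In the same order, 36.1%, 0.113% and 45.1% of all genes were called with the block, against 29.7%, 0% and 38.2% without it. Deviations of same-numbered libraries correlated at 0.24 (DMSO and TSA), 0.55 (DMSO and E6R) and 0.16 (TSA and E6R) over 7515 genes. All were positive, but each is a single comparison of 2 pairs of libraries. The labels name no shared culture or batch behind the numbers. With 2 libraries a group, whether same-numbered libraries belong together cannot be settled. The block gained PSMB7 for TSA against DMSO and PSMD9, PSMG3 and PSMG4 for E6R against TSA, and lost none. Depth limits genes that rest on few UMIs, among them PSMB8, PSMB9, NFE2L3, MAFK and TAP1.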
